A study of Mus musculus with 44 samples.

Results

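The regions described here are distal stretches of open chromatin that gained signal when the mouse medulloblastoma line preGTS1 was given DOX. They were chosen by 3 criteria on the deposited table of ATAC values. The smaller of the 2 distances to a gene start named for the region was over 1000 bases, the mean over the 4 preGTS1 libraries was at least 5 CPM (reads of a region scaled to the same total, over all listed regions, in every library), and the mean of the 2 DOX libraries was at least 2 times that of the 2 DMSO libraries. The criteria were met by 4219 of the 88981 listed regions, which is 4.74% of the table and 15.3% of the 27535 distal regions that reached the same level (called eligible below). The opposite change, a fall to at most 1 over 2, was met by 4936 eligible regions (17.9%), called lost below. The preGTS1 ATAC values therefore describe the gained regions and test nothing, whereas the other ATAC groups and the RNA were not used to choose them.

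The groups used were preGTS1 with DOX and with DMSO, the untreated sources GTS_1 and GTS_2, the line GTML_3 (written GTML3 in the RNA labels) with DOX and with DMSO, and the GFP and NoneGFP fractions of GTML tumor with no treatment. All carry the tissue label tumor and a source name of GTML, preGTS1 or GTS medulloblastoma; preGTS1 and GTML_3 are called lines here only because each has a name of its own and both treatments. Each ATAC group holds 2 libraries. RNA came from preGTS1 and GTML3 with DOX or DMSO, with 3 libraries per group. The labels used here give no strain, animal age, DOX dose or duration, do not say whether the libraries of a group came from separate cultures, and do not say what sets GTS_1 apart from GTS_2, so p-values measure only the spread between these libraries, which may be technical.

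ATAC-seq marks open chromatin by the places where a transposase can insert, and distal open regions include enhancers, which bind transcription factors and can act on a gene start far away, not always the nearest one. In the GTML mouse model a tetracycline-controlled transactivator under the promoter of the glutamate transporter gene Slc1a2 drives a MYCN transgene, and doxycycline, written DOX here, switches that transgene off. MYCN is a transcription factor of the MYC family that keeps cerebellar progenitors growing and dividing.

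Depth in the listed regions was 5.848 to 7.773 Mreads (reads in units of 10 to the power 6) per preGTS1 library, 1.185 to 3.997 for GTS, 0.827 to 0.969 for GTML_3 with DOX and 1.671 to 1.748 for GTML_3 with DMSO, and the RNA libraries held 10.861 to 24.672 Mreads. The 2 ATAC libraries of a group differed by a chi-square per degree of freedom of 1.85 to 1.93, where independent reads give about 1. For GFP and NoneGFP it was 2.06 and 1.99, and the source of this excess was not tested. The 2 libraries of a group were counted as 1 sample, so ATAC differences have no replicate check and no p-value is given. RNA under the symbol Mycn was 5.54, 6.13 and 5.65 log2 CPM in preGTS1 with DOX, against 10.54, 10.45 and 10.91 with DMSO, and 4.93, 5.07 and 4.80 in GTML3 with DOX, against 8.69, 8.48 and 8.42 with DMSO. It fell in both lines. Replicate 1 of GTML3 with DOX stood apart from the other 2 of its group (chi-square per degree of freedom 58.95 and 83.4, against 4.61 between the others). Of 5 endothelial markers looked for, the 2 in the RNA table summed to 59.8 to 65.6 CPM in preGTS1 with DOX, against 3.82 to 5.41 with DMSO. The astrocyte markers in the table, also 2 of 5, summed to 180 to 204 CPM in preGTS1 with DOX, against 137 to 154 with DMSO, but to 6.71 to 8.21 CPM in GTML3 with DOX, against 44.6 to 48.5 with DMSO. The mural and fibroblast markers in the table, 2 of 6, summed to 5.54 to 7.07 CPM in preGTS1 with DOX, against 0.956 to 1.68 with DMSO. Of these, Rgs5 had 3 reads or fewer in both conditions. The 2 of 5 oligodendrocyte markers in the table were lower in preGTS1 with DOX (10.7 to 12.3 CPM, against 15.1 to 18.8). In GTML3 they were higher (19.5 to 21.8, against 11.2 to 12.8), as were the endothelial markers (4.81 to 8.27, against 2.07 to 2.43). The 1 microglia marker overlapped between conditions in preGTS1. The part of these markers in the results below was not tested.

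Most gained regions lay far from a start and were weak before DOX. Their median distance to the nearest named start was 40500 bases (quartiles 15500 and 104000), and that of all eligible regions was 34800. By distance, 683 gained regions (16.2%) lay 1 to 10 kb from a start, 1655 (39.2%) at 10 to 50 kb, 789 (18.7%) at 50 to 100 kb and 1092 (25.9%) farther away, where eligible regions had 20.9%, 38.7%, 17.4% and 23.0%. Of regions within 1000 bases of a start at the same level, 145 of 10971 (1.32%) met the 2-fold criterion, so the criterion was met mainly away from starts. The gained share of eligible regions differed between chromosomes and was highest on chromosome 1 (502 of 2463, 20.4%) and lowest on chromosome 13 (76 of 768, 9.9%). Gained regions were a little narrower, with a median width of 617 bases against 676 for eligible regions.

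In preGTS1 the median level of the gained regions was 12.3 CPM in each DOX library, against 3.70 and 3.73 CPM in the DMSO libraries. The median ratio of DOX to DMSO was 3.14 (quartiles 2.43 and 4.62), 2258 regions (53.5%) reached 3-fold, 885 (21.0%) 5-fold and 155 (3.67%) 10-fold, with a highest ratio of 30.8. Both DOX libraries lay above both DMSO libraries in 4217 of the 4219. The 2-fold criterion used these same libraries, so this was nearly set in advance, and no share over eligible regions is given for it. On the log2(CPM + 1) scale used for the other comparisons, 3704 differed by at least 1 with libraries that did not overlap. By that same rule 13.5% of eligible regions are higher and 15.1% lower. The selection used these values, so nothing is read from either count. The 3 regions just inside the 2-fold limit lay near Mobp, Nell1 and Mc3r (8.51 and 5.99 CPM with DOX, against 4.29 and 2.96 with DMSO at Mobp), and the 3 just outside near Fbxl17, Galnt7 and Pyroxd1 (8.66 and 8.21 CPM with DOX, against 3.55 and 4.89 with DMSO at Fbxl17). Just inside the limit of 5 CPM lay regions near Tent5c, Myh11 and Gfra1 (8.66 and 7.01 CPM with DOX, against 1.63 and 2.7 with DMSO at Tent5c), and just outside it regions near Ism1, Tank and Nmnat3 (8.97 and 7.01 CPM with DOX, against 2.22 and 1.8 with DMSO at Ism1).

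**Figure D1:**
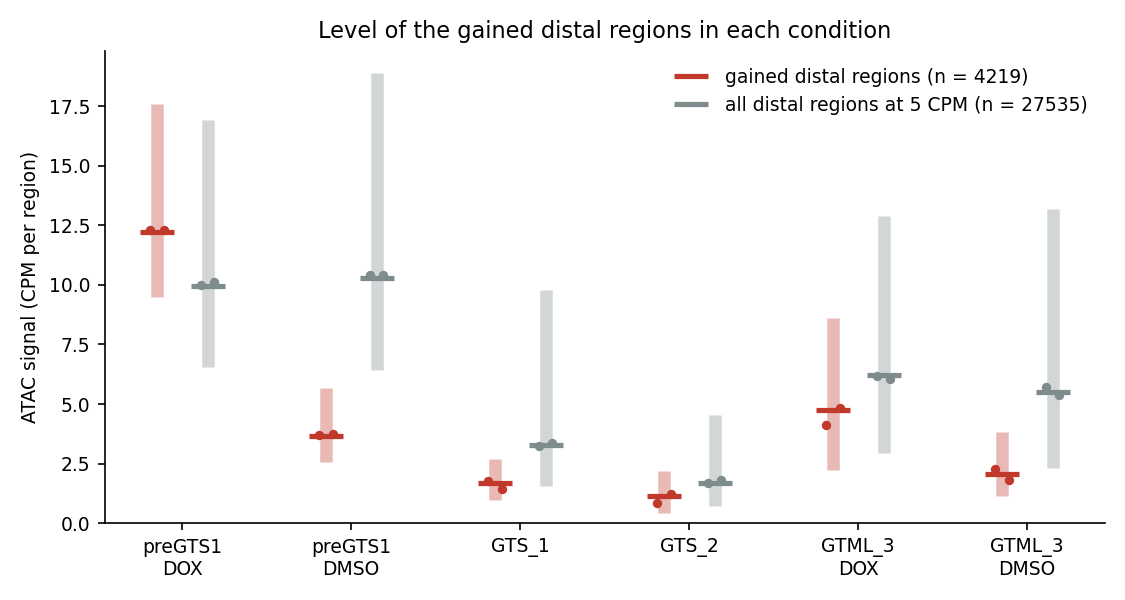
Level of the distal regions in each condition: bars show the quartile range and dashes the median of the condition means (CPM per region), and the 2 dots are the medians of the 2 libraries, for the 4219 gained and the 27535 eligible regions. The gained regions have medians of 12.2 CPM in preGTS1 with DOX and 3.66 with DMSO, 1.70 in GTS_1, 1.15 in GTS_2, 4.73 in GTML_3 with DOX and 2.06 with DMSO; the preGTS1 values are part of how the regions were chosen.

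The largest preGTS1 differences lay at regions with few reads under DMSO. The region 10863 bases from Zfp324, a zinc finger gene (chr7:13539960-13540687), had 37.7 and 44.1 CPM with DOX, against 1.18 and 2.57 CPM with DMSO, a ratio of 21.1. The region 54951 bases from Isx, an intestine-specific homeobox gene (chr8:77451702-77452344), had 23.7 and 22.1 CPM with DOX, against 0.592 and 1.29 with DMSO. The region 81789 bases from Vipr2, which encodes a receptor for vasoactive intestinal peptide (chr12:117397509-117398459), had 39.4 and 48.6 CPM with DOX, against 2.81 and 2.57 with DMSO. All 3 were picked by these preGTS1 values, so the sizes of the differences are a description. Outside preGTS1 they differed among themselves: the Zfp324 region had 14.5 and 13.3 CPM in GTML_3 with DOX, against 0 and 5.99 with DMSO, whereas the Vipr2 region had 8.26 and 2.42 CPM with DOX, against 2.29 and 4.79 with DMSO, and its libraries overlapped.

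The gained regions with the highest levels were of another kind. The middle of the top region (chr17:39979978-39985748) lay 2922 bases from the start of Rn45s, the pre-ribosomal RNA gene. The named distances fit the middle of a region, and this one is 5771 bases wide. Its nearer edge thus lies beside that start, and it counts as distal only through its width. The Rn45s region held 26000 and 26800 CPM in preGTS1 with DOX, against 11200 and 11100 with DMSO. It took 2.64% of all reads in preGTS1 with DOX and 1.11% with DMSO, and 3.72% in GTS_1, 1.38% in GTS_2, 1.22% in GTML_3 with DOX and 0.667% with DMSO. Among the 24 other gained regions with at least 10 CPM in all 6 groups, 13 kept a ratio to this region that varied by at most 2-fold over the groups. Of the 1806 other eligible regions at that level, gained ones included, 20 did. The preGTS1 groups that chose the regions are among the 6, so the count is a description. Gained regions had to rise at least 2-fold in preGTS1, as the Rn45s region does, so part of this likeness is built in. The highest of the 13 lay near Pex2, Zc3h7a, Limd1, Axin2, Tmem30c, Cdk8 and Gphn. The Pex2 region (chr3:5860188-5860968) stayed at 2.74% to 3.77% of the Rn45s level. Whether these regions share reads with the repeated ribosomal genes was not tested. Without these regions and the Rn45s region, a choice made after seeing the data, 35.6% of gained regions were higher and 2.43% lower in GTML_3 by the rule given below, 9.8% and 17.4% in GTS_1, and 6.61% and 28.4% in GTS_2.

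Outside preGTS1, most gained regions were under 5 CPM in each group taken singly. In GTS_1 and GTS_2, 355 (8.41%) and 293 (6.94%) had a mean of at least 5 CPM, in GTML_3 with DOX 1978 (46.9%) and with DMSO 678 (16.1%). For eligible regions these shares were 38.5% in GTS_1, 23.4% in GTS_2, 58.0% in GTML_3 with DOX and 52.4% with DMSO. In all 4 groups, 76 gained regions (1.8%) were at 5 CPM and 2010 (47.6%) were under it. A further 1226 (29.1%) reached it in GTML_3 with DOX and in none of the other 3. No share of eligible regions is given for these combined states, so these counts are a description.

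The first comparison asks whether the gained regions also opened with DOX in the other line. In GTML_3, 1501 of the 4219 (35.6%) were at least 2-fold higher with DOX and 102 (2.42%) at least 2-fold lower, on the log2(CPM + 1) scale and with both libraries of one condition beyond both of the other. Regions that met both conditions are called past 2-fold below. The same rule called 9.83% of all listed regions higher and 8.74% lower, and 13.2% and 10.3% of eligible regions. The median difference was 0.81 (log2) over the gained regions and -0.60 over the regions lost in preGTS1, of which 2.78% were higher and 28.1% lower in GTML_3. The share higher was 30.7% for regions with a 2- to 3-fold gain in preGTS1, 37.5% for 3- to 5-fold and 43.3% for 5-fold and over, with medians of 0.71, 0.86 and 1.0. The 2 lines share no library, the comparison has 1 sample per condition, and GTML_3 with DOX is the shallowest group.

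**Figure D2:**
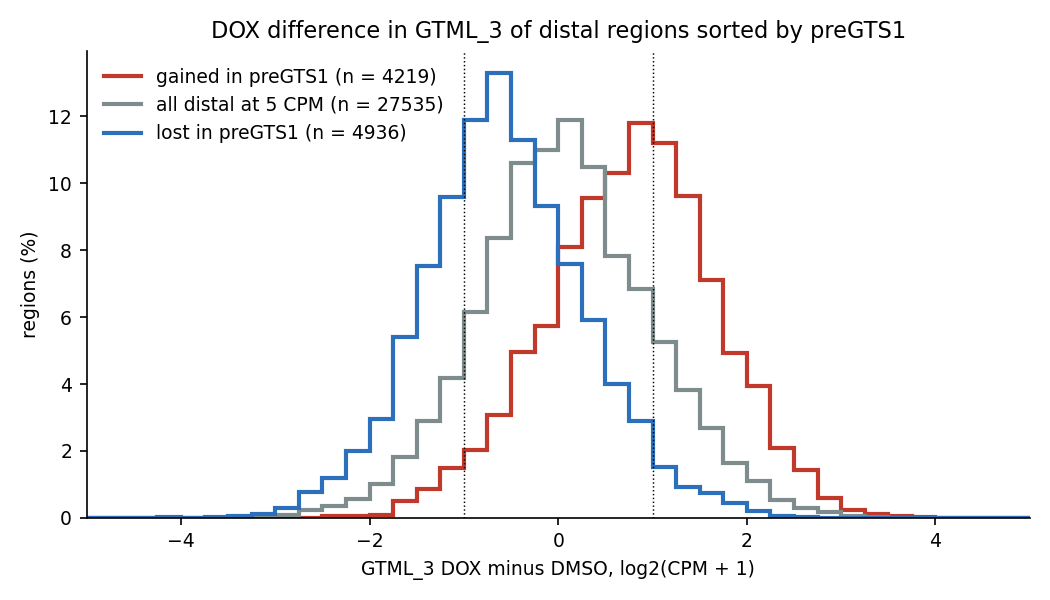
Difference between DOX and DMSO in GTML_3 (log2(CPM + 1), x axis) for distal regions sorted by what they did in preGTS1; the y axis is the percent of each set in steps of 0.25, and dotted lines mark 2-fold. The gained set is centred on a median of 0.81 and the lost set on -0.60.

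With TMM factors the median of all regions shifted by -0.16 (log2), 26.5% of gained regions were higher and 2.89% lower, with a median of 0.58, and the eligible regions turned to 8.97% higher and 15.3% lower. Leaving out a library loosens the rule, and the share of gained regions called lower was then 8.79% without GTML_3 DOX replicate 1, 6.61% without GTML_3 DOX replicate 2, 4.22% without GTML_3 DMSO replicate 1 and 4.29% without GTML_3 DMSO replicate 2, while the share higher stayed between 38.6% and 41.4%.

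The largest differences in GTML_3 were gained regions with no or almost no reads under DMSO. The region 22842 bases from Rab28, a small GTPase gene (chr5:42076146-42077007), had 11.4 and 15.7 CPM in GTML_3 with DOX, against 0 and 0 with DMSO, which is at least 15.2-fold higher taking 3 reads over the DMSO libraries as the floor. Whether each ATAC fragment was counted at both its ends was not settled, and if it was, this bound and the next would be lower. It also had 33.9 and 33.2 CPM in preGTS1 with DOX, against 5.03 and 6.05 with DMSO, and 5.0 and 5.28 CPM in GTS_1. The region 41778 bases from Gm32926 had 10.3 and 12.1 CPM in GTML_3 with DOX, against 0 and 0 with DMSO, which is at least 12.7-fold higher, and in GTS_2 it had 6.75 and 10.9 CPM. In the other direction, large differences lay near 9130015G15Rik, Srp9 and Gm2109, rested on 5 or 6 reads under DOX, and had ratios of 0.336 to 0.394 whose intervals all included 1.

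The second comparison sets the untreated GTS sources against GTML_3 with DMSO, which serves as the reference of both GTS comparisons and of the DOX comparison in GTML_3, so these are not independent. In GTS_1, 426 gained regions (10.1%) were higher than in GTML_3 with DMSO and 730 (17.3%) lower, where the rule called 20.0% of all regions higher and 18.2% lower, and 15.8% and 31.1% of eligible regions. In GTS_2, 288 (6.83%) were higher and 1193 (28.3%) lower, where it called 18.1% of all regions higher and 25.7% lower, and 7.75% and 46.0% of eligible regions. Over all levels, the shares of gained regions called higher and lower were each below those of eligible regions in both sources. Among regions with a mean of at least 5 CPM over the compared columns this order did not hold for the share higher, which was 22.4% of 514 gained and 21.4% of eligible regions in GTS_1 and 23.1% of 458 gained and 11.9% of eligible regions in GTS_2. Gained regions were weaker in GTML_3 with DMSO to begin with (median 2.06 CPM, against 5.51 CPM for eligible regions). The medians over gained regions were -0.19 in GTS_1 and -0.53 in GTS_2. With TMM the median of all regions shifted by 0.14 in GTS_1, and the median over gained regions was -0.04. By TMM 12.8% of gained regions were higher in GTS_1, against 23.2% of all and 18.8% of eligible regions. The share lower was 14.5%, against 15.6% and 27.5%. Median centring shifted GTS_2 by 0.22, with 8.49% of gained regions higher and 23.5% lower. It gave 20.6% and 22.3% of all regions, and 9.56% and 41.6% of eligible regions. Without GTML_3 DMSO replicate 1, 16.0% of gained regions were higher in GTS_1.

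Some gained regions were past 2-fold in both GTS sources. Signal was higher in both for 114 (2.7%, against 3.7% of eligible regions) and lower in both for 514 (12.2%, against 25.7%). The 63 that were higher in GTML_3 with DOX and in both GTS sources made up 1.49% of gained regions, against 0.774% of eligible regions, and 136 (3.22%, against 1.56%) were higher in GTML_3 with DOX but lower in both GTS sources. The region 21563 bases from Igf2bp3, which encodes an oncofetal mRNA-binding protein (chr6:49186301-49186732), had 48.0 and 52.8 CPM in GTS_1 and 26.1 and 18.1 in GTS_2, against 3.43 and 2.39 in GTML_3 with DMSO. Its GTS_1 to GTML_3 ratio was 17.0 (95% interval 7.15 to 40.3, counting error only), and it had 27.2 and 25.5 CPM in preGTS1 with DOX, against 6.51 and 7.20 with DMSO. The region 63461 bases from Lrch1 (chr14:75283855-75284592) had 12.5 and 10.1 CPM in GTS_1 and 52.3 and 44.0 in GTS_2, against 1.14 and 0 in GTML_3 with DMSO. In these regions all GTS libraries were above all GTML_3 DMSO libraries, and the other named rises lay near Dusp10 and Il31ra.

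At the opposite end, a region (chr1:121134889-121135618) lay 183572 bases from Inhbb, which encodes an inhibin and activin subunit, and almost as near to Gli2, at 185057 bases. It had 1.5 and 2.4 CPM in GTS_1 and 0 and 3.02 in GTS_2, against 41.8 and 31.1 in GTML_3 with DMSO. The same region had 79.5 and 70.1 CPM in GTML_3 with DOX, and 26.9 and 27.9 CPM in preGTS1 with DOX, against 9.76 and 8.23 with DMSO. It was therefore higher with DOX in both lines and near background in GTS. The other named falls, near 4930433B08Rik, E330023G01Rik and Nckap5, had at most 2.88 CPM in any GTS library, against 22.1 to 49.8 CPM in GTML_3 with DMSO.

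The GFP and NoneGFP fractions, listed in a separate table of 88258 regions, overlapped 599 gained regions (14.2%) by at least 1 base, against 35.3% of eligible regions. Of the 611 overlapping regions, 5 (0.818%) were at least 2-fold higher in GFP and 0 lower, where the rule called 0.755% of all regions higher and 0.0363% lower, and 0.302% and 0.0201% of those overlapping eligible regions. Limma called 3.44% of the 611 higher and 0.655% lower, against 2.32% and 1.13% of all regions, and edgeR 2.13% and 0.818%, against 2.07% and 1.58% of all regions. Their medians were 5.52 CPM in GFP and 5.11 in NoneGFP. The largest difference was 16617 bases from Mtmr2, a phosphoinositide phosphatase gene (chr9:13569892-13570590), with 10.9 and 12.2 CPM in GFP, against 2.42 and 2.21 in NoneGFP, a ratio of 5.1 (95% interval 3.4 to 7.66, counting error only). The others named lay near Dip2a, Mir181a-1 and Iqsec1. With 5 regions called, leaving out a library moved the share higher to 1.31% without GFP replicate 2 and 1.47% without NoneGFP replicate 2.

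The gained regions were nearest to 3035 genes. Of these, 2265 had 1 gained region, 522 had 2, 162 had 3 and 86 had 4 or more, and 838 were also nearest to a lost region. The 8 genes with the most held them in stretches of 341 to 1130 kb.

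Clnk, which encodes an adaptor of immune-receptor signalling, had the most, with 14 of its 22 eligible regions gained. All 14 lay within chr5:39173015-39535398, a stretch of 362 kb with 1 lost region. Their summed signal was 262 and 255 CPM in preGTS1 with DOX, against 73.5 and 82.6 with DMSO, 161 and 133 in GTML_3 with DOX, against 56.1 and 47.9 with DMSO, 50.5 and 55.6 in GTS_1 and 21.9 and 11.5 in GTS_2. Signal was high with DOX in both lines, and 8 of the 14 were past 2-fold in GTML_3. The region 96161 bases from the start had 32.2 CPM in preGTS1 with DOX, against 9.52 with DMSO, and 19.9 in GTML_3 with DOX, against 3.49 with DMSO. Clnk RNA was near background in preGTS1, with 2 reads over the DOX libraries and 8 over the DMSO libraries, a ratio of 0.362 (95% interval 0.0374 to 1.81, counting error only). The difference missed the threshold (limma adjusted p = 0.0748) and passed it without DOX replicate 2 or 3 or DMSO replicate 1 (limma adjusted p = 0.0289 to 0.0396). In GTML3 its RNA was 2.15, 2.09 and 2.21 log2 CPM with DOX, against 0.82, 1.19 and 0.81 with DMSO, a difference of 1.21 (SE 0.695, limma adjusted p = 0.14 in the fit over all 4 groups, and 0.000364 in a fit of the GTML3 libraries alone). The 3 DOX libraries of GTML3 lay above the 3 DMSO libraries.

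Cxcr4 encodes the receptor of the chemokine CXCL12, which holds granule neuron progenitors in the outer cerebellum, and had 9 of 16 eligible regions gained within 341 kb (chr1:130463604-130804711). The one 95404 bases from its start had 47.9 CPM in preGTS1 with DOX, against 7.42 with DMSO, 5.09 in GTML_3 with DOX, against 3.53 with DMSO, 4.18 in GTS_1 and 0.905 in GTS_2. Its RNA was 5.97, 6.22 and 5.96 log2 CPM in preGTS1 with DOX, against 2.97, 3.39 and 3.57 with DMSO, and rose by 2.74 (SE 0.418, limma adjusted p = 2.64e-05). In GTML3 no Cxcr4 read was found in any of the 6 libraries, although 4 of the 9 regions were past 2-fold higher in GTML_3 with DOX. The region 283172 bases away, for instance, had 11.8 CPM in GTML_3 with DOX, against 2.33 with DMSO, and 16.8 CPM in GTS_2. Within 1000 bases of the Cxcr4 start, signal was 59.5 CPM in preGTS1 with DOX, against 69.0 with DMSO.

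Lpin1, a phosphatidate phosphatase of lipid synthesis, had 9 of 13 eligible regions gained over 343 kb (chr12:16213431-16556133). The strongest member of any of the 8 genes lay 382516 bases from its start, with 127 CPM in preGTS1 with DOX, against 19.6 with DMSO, 29.0 in GTML_3 with DOX, against 16.5 with DMSO, 3.39 in GTS_1 and 0.603 in GTS_2. Lpin1 RNA was 5.44, 5.47 and 5.41 log2 CPM in preGTS1 with DOX, against 4.46, 4.64 and 4.73 with DMSO, and rose by 0.83 (SE 0.119, limma adjusted p = 1.38e-05). In GTML3 it was 5.44, 5.14 and 5.20 with DOX, against 3.07, 2.81 and 3.18 with DMSO, a larger rise of 2.24 (SE 0.119, limma adjusted p = 1.84e-10), and the responses of the 2 lines differed by -1.41 (limma adjusted p = 1.01e-05). The groups did not overlap in either line.

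Pcdh15, a protocadherin of the links between sensory hair cell stereocilia that is also present in retina, had 7 of 12 eligible regions gained. The one 120897 bases from its start had 45.7 CPM in preGTS1 with DOX, against 20.3 with DMSO, and 21.0 in GTML_3 with DOX, against 1.17 with DMSO. Pcdh15 RNA was 4.50, 4.43 and 4.62 log2 CPM in preGTS1 with DOX, against 3.54, 3.35 and 3.19 with DMSO, and rose by 1.16 (SE 0.358, limma adjusted p = 0.00956). In GTML3 it rose by 4.11 (SE 0.358, limma adjusted p = 6e-08) on 76 reads with DOX and 6 with DMSO. Signal at its 2 start regions together was 21.7 CPM in preGTS1 with DOX, against 22.8 with DMSO, and 11.2 in GTML_3 with DOX, against 2.08 with DMSO.

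Cdh13, which encodes a cadherin anchored to the membrane by a lipid, had as many lost as gained regions (8 each of 27 eligible). None of its 8 gained regions met the full 2-fold rule in GTML_3. Those 154392 and 398145 bases from its start differed by 1.68 and 1.02 (log2), but without both DOX libraries above both DMSO libraries. Cdh13 RNA was 5.13, 5.17 and 5.16 log2 CPM in preGTS1 with DOX, against 2.84, 3.06 and 2.90 with DMSO, and rose by 2.22 (SE 0.107, limma adjusted p = 4.43e-11). It also rose in GTML3, by 1.63. Pard3, a scaffold of cell polarity, had 7 of 20 regions gained, and its RNA rose by 0.62 in preGTS1 (limma adjusted p = 2.09e-06) and fell by 0.28 in GTML3 (limma adjusted p = 0.00425). The corepressor subunit gene Tbl1xr1 had 8 of 18 regions gained, with RNA of 6.71, 6.42 and 6.62 log2 CPM in preGTS1 with DOX, against 6.65, 6.73 and 6.48 with DMSO, which overlapped (difference -0.04, SE 0.0866, limma adjusted p = 0.719), while in GTML3 it rose by 0.50. Pla2g4a, a phospholipase that frees arachidonic acid, had 7 of 32 gained, some over 800 kb away, and its RNA fell by 1.68 in preGTS1 (limma adjusted p = 0.00299) on 20 reads with DOX and 66 with DMSO. Of these 8 genes, RNA thus rose in 5, fell in 1 and did not pass the test in 2 in preGTS1. Of all genes 34.5% rose and 33.7% fell there.

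**Figure D3:**
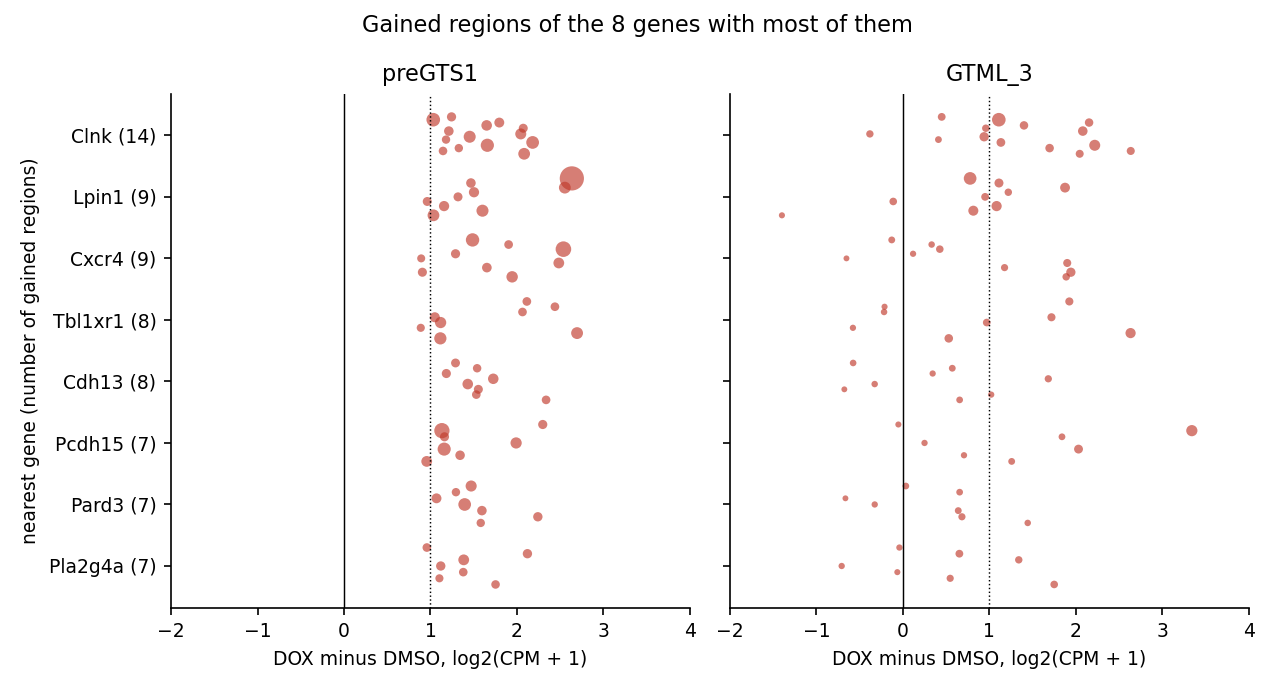
Each dot is 1 gained region of the 8 genes with the most (number in brackets), placed by its difference between DOX and DMSO (log2(CPM + 1)) in preGTS1 on the left and GTML_3 on the right; dot area grows with the CPM under DOX of that line and the dotted line marks 2-fold. All dots are near or above the 2-fold line in preGTS1, where they were chosen, while in GTML_3 they run from -1.40 to 3.34 and only Clnk has more than 4 regions past the line with libraries that do not overlap.

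The letters of the gained regions are not printed, because they are given in mm9 coordinates and no mm9 genome was used here. The promoters of Cxcr4, Lpin1 and Pcdh15 are shown instead, as the 3 genes with the most gained regions among those whose RNA rose in preGTS1 and that have 1 promoter in the RefSeq table (GRCm38.p6, 250 bases before to 50 after the start, 5′ to 3′ on the gene's strand). Capitals mark E-boxes, the sites that bHLH factors including MYCN can bind, searched on both strands as CACGTG, a site of MYC factors, as CAGCTG, and as the proneural site CAGATG.
Cxcr4, chr1:128592250-128592549, minus strand: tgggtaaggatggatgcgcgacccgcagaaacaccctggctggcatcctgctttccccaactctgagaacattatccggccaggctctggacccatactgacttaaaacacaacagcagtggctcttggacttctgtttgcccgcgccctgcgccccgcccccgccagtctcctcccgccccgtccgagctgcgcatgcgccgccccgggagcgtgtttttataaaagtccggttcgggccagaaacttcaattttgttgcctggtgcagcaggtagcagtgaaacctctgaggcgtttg
Lpin1, chr12:16610917-16611216, minus strand: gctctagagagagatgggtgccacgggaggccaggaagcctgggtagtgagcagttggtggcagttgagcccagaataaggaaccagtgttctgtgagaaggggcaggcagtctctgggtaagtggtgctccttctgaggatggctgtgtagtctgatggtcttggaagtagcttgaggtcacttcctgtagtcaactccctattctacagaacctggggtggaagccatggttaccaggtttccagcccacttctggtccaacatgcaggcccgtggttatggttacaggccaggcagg
Pcdh15, chr10:73821617-73821916, plus strand: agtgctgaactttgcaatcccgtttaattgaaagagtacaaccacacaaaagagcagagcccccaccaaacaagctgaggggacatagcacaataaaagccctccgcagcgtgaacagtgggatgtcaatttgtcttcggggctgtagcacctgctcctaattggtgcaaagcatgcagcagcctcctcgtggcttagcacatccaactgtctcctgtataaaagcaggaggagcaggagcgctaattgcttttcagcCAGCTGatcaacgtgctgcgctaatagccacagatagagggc
None of the 3 windows holds CACGTG, found in 7.15% of 32851 RefSeq promoters, or CAGATG (17.2%), and the Pcdh15 window holds 1 CAGCTG (16.3%). A match describes letters only, and no match says only that they are not in these windows.

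The RNA question is whether genes nearest to gained regions changed with DOX. In bulk samples, fewer cells of a type and less RNA per cell cannot be told apart. Of the 3035 genes, 1919 were in the RNA table (1837 by symbol and 82 by an older symbol), covering 2783 of the 4219 regions. In preGTS1, 855 (44.6%) rose and 582 (30.3%) fell by limma at an adjusted p under 0.05, against 34.5% and 33.7% of all 15926 genes and 42.1% and 31.2% of genes nearest to any eligible region. Their median change was 0.23 (log2), against 0.16 for genes nearest to any eligible region and 0.35 for genes nearest to a lost region, of which 48.6% rose. The share near gained regions was therefore close to that near eligible regions and below that near lost ones. In GTML3, 842 (43.9%) rose and 538 (28.0%) fell, against 34.5% and 31.4% of all genes and 41.4% and 29.3% near eligible regions. The test of the difference between the lines called 450 (23.4%) for a higher and 557 (29.0%) for a lower response in preGTS1, against 17.1% and 25.1% of all genes and 22.9% and 27.1% near eligible regions.

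The share of genes that rose was larger where more gained regions lay nearest in preGTS1, but likewise where many regions lay nearest and none was gained. In preGTS1 it was 42.0% of 1374 genes with 1 gained region, 48.8% of 363 with 2, 55.6% of 117 with 3 and 55.4% of 65 with 4 or more, with medians of 0.15, 0.34, 0.53 and 0.83. In GTML3 the shares were 42.1%, 49.0%, 43.6% and 53.8%. Genes with 4 or more eligible regions of which none was gained rose in 53.3% of 722 cases in preGTS1, with a median of 0.47, and genes with 4 or more lost regions in 66.3% of 175. In GTML3 these 2 sets rose in 45.8% and 46.9% of cases, both below the 53.8% of genes with 4 or more gained regions. Of all genes 34.5% rose in each line. Differences between these sets were not tested. Among the 17 genes with 4 or more gained and no lost region, 6 rose (35.3%), with a median of 0.11, and of the 1346 genes with gained and no lost regions 40.0% rose and 34.0% fell. The 573 genes with both had 55.3% rising, with a median of 0.62.

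**Figure D4:**
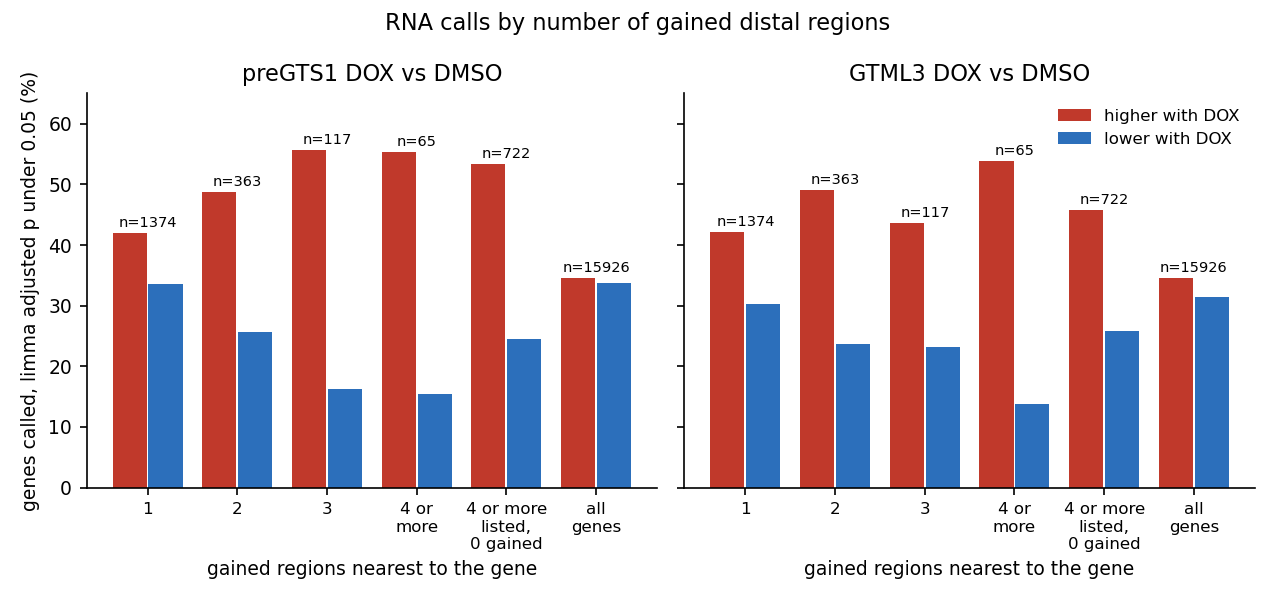
Percent of genes called higher (red) or lower (blue) with DOX in RNA (limma adjusted p under 0.05, y axis) by the number of gained regions nearest to them, for preGTS1 on the left and GTML3 on the right; n is the number of genes. In preGTS1 the share higher is 42.0% for 1 gained region and 55.4% for 4 or more, but it is 53.3% for genes with 4 or more eligible regions of which none was gained. In GTML3 these shares are 42.1%, 53.8% and 45.8%.

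The lists of genes can also be split by what their gained regions did in GTML_3. Of 872 genes with a gained region past 2-fold higher in GTML_3 with DOX, 409 (46.9%) rose in preGTS1 and 407 (46.7%) in GTML3. In these lines 30.8% and 27.1% of them fell. Of the 1047 genes whose gained regions were not past 2-fold higher in GTML_3, 42.6% rose in preGTS1 and 41.5% in GTML3, and 29.9% and 28.8% fell. Near any eligible region, 42.1% and 41.4% of genes rose and 31.2% and 29.3% fell. Of all genes 34.5% rose in each line. The difference between the 2 sets was not tested.

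The largest increases among genes nearest to a gained region included several neuronal and retinal genes. Ecel1, a neuronal membrane peptidase of the endothelin-converting enzyme family, had both its eligible regions gained and was at 5.22, 5.11 and 5.05 log2 CPM in preGTS1 with DOX, against -1.09, -3.23 and -2.26 with DMSO. It rose by 7.32 (SE 1.2, limma adjusted p = 0.000281) with no overlap. Islr2, a membrane protein of growing axons, was at 5.70, 6.04 and 5.78 log2 CPM in preGTS1 with DOX, against 0.47, 0.39 and 0.18 with DMSO, a rise of 5.49 (SE 0.118, limma adjusted p = 2.24e-14), and it rose by 2.97 in GTML3, which was less (difference 2.52, limma adjusted p = 2.32e-08). Slc17a6, the vesicular glutamate transporter VGLUT2, rose by 5.75 in preGTS1 (limma adjusted p = 3.61e-06) and differed by 1.63 in GTML3 (limma adjusted p = 0.0573, and 0.00189 in the GTML3 libraries alone). Gjd2, the neuronal gap-junction protein connexin 36, rose by 4.83 in preGTS1 and 2.57 in GTML3, and Cabp5, a calcium-binding protein of retinal neurons, by 4.97 in preGTS1 and 5.24 in GTML3. The only eligible region of Cabp5 was gained and had 30.9 and 29.4 CPM in preGTS1 with DOX, against 7.99 and 10.8 with DMSO, and 25.8 and 18.1 CPM in GTML_3 with DOX, against 4.0 and 3.59 with DMSO, so it was higher with DOX in both lines. March4, an E3 ubiquitin ligase of membranes, rose by 5.66 in preGTS1 and 4.03 in GTML3, and the uncharacterised Gm16701 by 5.41 in preGTS1 and 4.10 in GTML3.

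Several of these started from almost no RNA, so their fold changes are uncertain. Rax, a homeobox factor of the developing retina, had 69 reads in preGTS1 with DOX and 1 with DMSO, a ratio of 99.9 (95% interval 17.3 to 4000, counting error only), and Sync, an intermediate filament protein, had 61 and 1. The uncharacterised 9430021M05Rik had 77 reads in preGTS1 with DOX and 0 with DMSO, at least 37.1-fold higher with 3 reads over the DMSO libraries as the floor, whereas in GTML3 it was at 1.8, 0.96 and 1.91 log2 CPM with DOX, against 1.31, 1.31 and 0.85 with DMSO, which overlapped.

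Gained regions also lay near genes whose RNA fell strongly. Lpl, a lipoprotein lipase, was at 0.59, 0.17 and -0.02 log2 CPM in preGTS1 with DOX, against 5.16, 5.25 and 4.92 with DMSO, and fell by 4.86 (SE 0.526, limma adjusted p = 5.89e-07), although its only eligible region was gained; in GTML3 it had 12 reads with DOX and 2 with DMSO, a ratio of 8.61 (95% interval 1.92 to 79.2, counting error only). Mycn had 1 of 8 eligible regions gained and 2 lost, and RNA under that symbol fell by 4.86 in preGTS1 and 3.59 in GTML3. Whether those reads came from the mouse gene or from the MYCN transgene was not tested. The metalloreductase gene Steap3 fell by 4.80 in preGTS1 (limma adjusted p = 7.74e-09) and differed by 0.11 in GTML3 (limma adjusted p = 0.813). The cell division genes Ttk, a spindle checkpoint kinase, and Ect2, an activator of cytokinesis, fell by 3.79 and 3.65 in preGTS1 and by 2.83 and 2.94 in GTML3, and the DNA repair gene Fanci by 3.68 in preGTS1 and 2.58 in GTML3. Each of these 3 had 1 eligible region, which was gained.

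**Figure D5:**
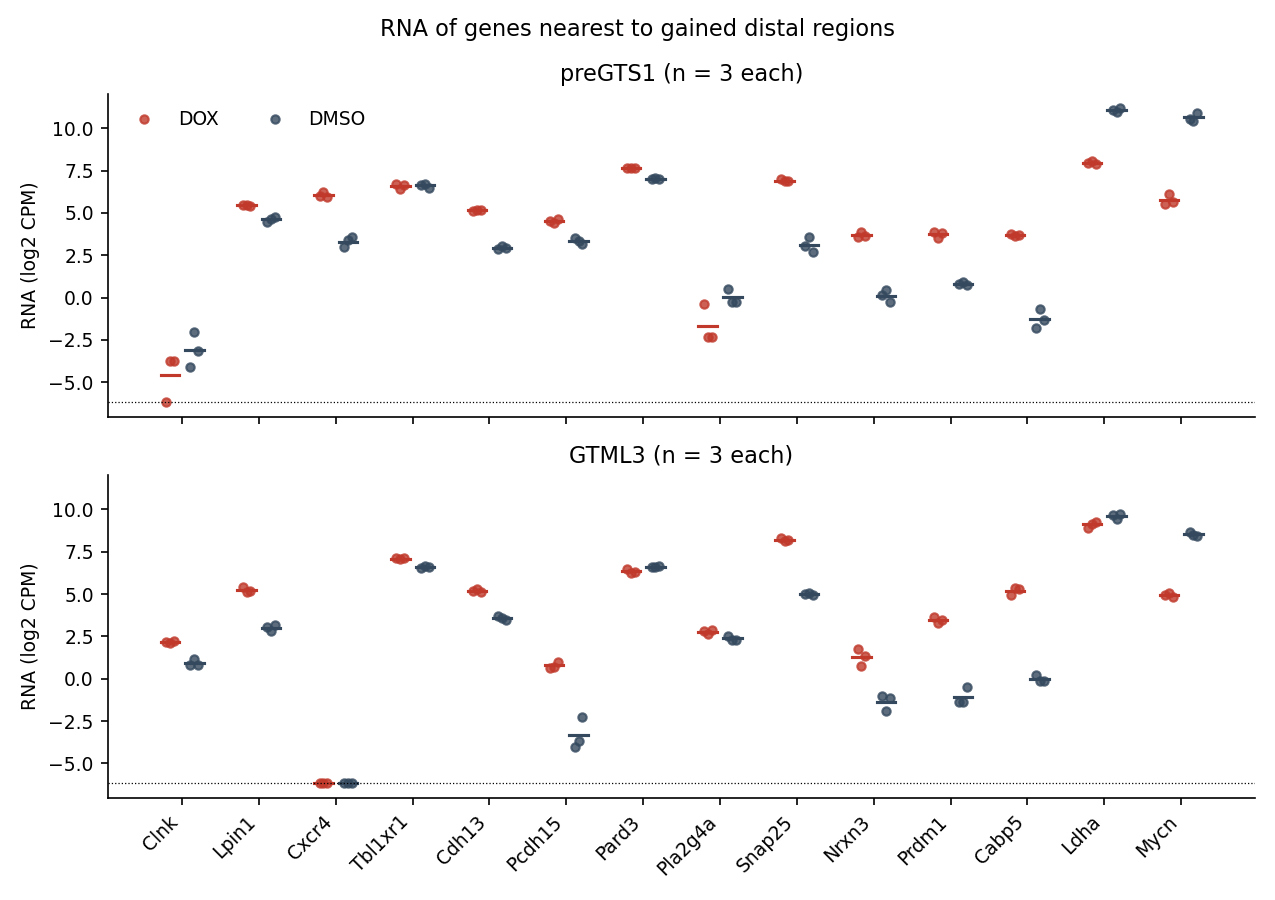
RNA (log2 CPM) of 14 genes nearest to gained regions, with DOX in red left of DMSO in dark blue; dots are the 3 libraries, dashes their mean, and the dotted line at -6.16 is the value of 0 reads. Cxcr4 sits on that line in all GTML3 libraries, and Ldha and Mycn are lower with DOX in both lines.

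By function, gained regions were spread unevenly over the gene lists looked at, which were chosen with earlier results known and are given as counts without a test. Over all genes, 3035 of 10107 with an eligible region (30.0%) had a gained one. The share was 9 of 16 (56.2%) for granule neuron progenitor and sonic hedgehog genes, 10 of 19 (52.6%) for TGF-beta, BMP and mesenchymal genes, 9 of 22 (40.9%) for astroglial genes, 12 of 30 (40.0%) for axon guidance, 6 of 15 (40.0%) for photoreceptor genes, 9 of 27 (33.3%) for neuronal cytoskeleton and synapse and 7 of 26 (26.9%) for proneural factors. It was 3 of 18 (16.7%) for the list of nuclear factor, retinoic acid and thyroid receptor genes, 1 of 7 (14.3%) for S-phase and mitosis, 2 of 16 (12.5%) for growth arrest and 1 of 16 (6.25%) for the Notch pathway. For ribosome biogenesis and MYC targets it was 4 of 5 (80.0%), over few genes, because most of that list has no eligible distal region. A gene with more eligible regions has more ways to hold a gained one, so these shares depend on that number. Counted by region, 15.3% over all genes were gained (4219 of 27535). It was 24 of 118 for granule progenitor, 15 of 72 for TGF-beta, 14 of 91 for astroglial and 9 of 52 for photoreceptor genes. For axon guidance it was 23 of 230, for synapse 19 of 159 and for proneural factors 7 of 126, all below that share.

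Neuronal genes near gained regions mostly rose. Of the 9 in the cytoskeleton and synapse list, 7 rose in preGTS1 and 1 fell, with a median of 2.64, and over the whole list 29 of 31 measured genes rose, against 34.5% of all genes. Snap25, a core protein of vesicle fusion with 4 gained of 9 eligible regions, was at 6.99, 6.87 and 6.86 log2 CPM in preGTS1 with DOX, against 3.03, 3.59 and 2.71 with DMSO, and rose by 3.80 (SE 0.158, limma adjusted p = 3.87e-11), and by 3.22 in GTML3. The presynaptic adhesion gene Nrxn3, with 4 of 15 gained, rose by 3.58 in preGTS1 and 2.63 in GTML3. The RNA-binding protein gene Elavl2, with 3 of 11 gained, rose by 0.50 in preGTS1 (limma adjusted p = 0.000938) but fell by 1.79 in GTML3. Of 12 axon guidance genes near gained regions 11 rose in preGTS1, and 27 of 31 over the whole list: the ephrin gene Efnb2, with 4 of 23 gained, rose by 1.62 in preGTS1 and 1.65 in GTML3, and Sema6d, a transmembrane semaphorin, rose by 3.32 in preGTS1 and had 0 reads with DOX and 6 with DMSO in GTML3. Efna5, another ephrin gene with 4 of 23 gained, rose by 0.71 in preGTS1 (limma adjusted p = 0.0177), a call that was lost on leaving out preGTS1 DMSO replicate 2 or 3 or DOX replicate 1 or 3 (limma adjusted p = 0.0646 to 0.0712).

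Proneural factors had 1 gained region each at most. Of the 6 measured genes near one 3 rose in preGTS1, and 19 of 28 over the whole list, where 34.5% of all genes rose. Ebf1, a helix-loop-helix factor of differentiating neurons with 1 gained and 6 lost of 22 eligible regions, rose by 1.2 (limma adjusted p = 5.46e-10). Its relative Ebf2 was at 4.88, 5.19 and 4.81 log2 CPM in preGTS1 with DOX, against 3.41, 3.44 and 3.40 with DMSO, without overlap, yet missed the threshold in the fit over all 4 groups (difference 1.54, SE 0.733, limma adjusted p = 0.0747) and passed it in the preGTS1 libraries alone (limma adjusted p = 7.91e-07). The same held for the zinc finger factor Myt1l, with a difference of 0.78 (limma adjusted p = 0.377, and 0.00133 in the preGTS1 libraries alone). Both genes have at most 3 reads per condition in GTML3.

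All 6 photoreceptor genes near gained regions rose in preGTS1, with a median of 2.28. Over the whole list 10 of 13 measured genes rose and 3 fell in preGTS1, and 12 rose and 0 fell in GTML3. The response was lower in preGTS1 than in GTML3 for 10. Of all genes, 34.5% rose and 33.7% fell in preGTS1, 34.5% rose and 31.4% fell in GTML3, and 25.1% had a lower response in preGTS1. Prdm1, a repressor that steers photoreceptor precursors, had 3 of 4 eligible regions gained, 2 of them past 2-fold in GTML_3, and was at 3.90, 3.54 and 3.82 log2 CPM in preGTS1 with DOX, against 0.81, 0.90 and 0.74 with DMSO. It rose by 2.94 in preGTS1 (limma adjusted p = 2.86e-08) and by 4.52 in GTML3 (limma adjusted p = 2.4e-10). Otx2, a homeobox factor of photoreceptors and of several medulloblastomas, had 2 of 13 gained and rose by 0.38 in preGTS1 and 1.25 in GTML3.

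Astroglial genes near gained regions rose in 5 of 9 cases in preGTS1 and fell in 0, while over the whole list 17 of 23 measured genes rose, and 34.5% of all genes did. Nfib, a nuclear factor I gene of glial differentiation, had 2 of 12 gained and was at 9.30, 9.01 and 9.34 log2 CPM in preGTS1 with DOX, against 8.36, 8.34 and 8.09 with DMSO, a rise of 0.96 (limma adjusted p = 3.3e-06), while in GTML3 it fell by 1.8 (difference between lines 2.75, limma adjusted p = 1.31e-08). Tnc, an extracellular matrix protein, had 3 of 12 gained and rose by 3.17 (SE 1.25, limma adjusted p = 0.0471); the call was lost on leaving out any 1 of the 6 preGTS1 libraries (limma adjusted p = 0.0819 to 0.0949) although the groups did not overlap. Glul, the glutamine synthetase gene, had 2 of 3 gained with overlapping RNA (difference 0.10, limma adjusted p = 0.384). Sox9 had no eligible distal region, so none was gained, and its RNA rose by 2.13 in preGTS1 (limma adjusted p = 2.65e-05); Slc1a2, whose promoter drives the transactivator, had 0 of 11 gained and 3 lost and rose by 2.26. Myc, with 0 of 3 gained, rose by 3.85, and the DNA repair gene Mgmt, with 0 of 1, by 1.09.

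In the granule progenitor and hedgehog list, 4 of the 9 genes near gained regions rose and 1 fell in preGTS1. Over the whole list 9 of 20 measured genes rose and 3 fell, where 34.5% of all genes rose and 33.7% fell. Apart from Cxcr4, the largest number of gained regions was 3, at the homeobox gene Meis2, whose rise of 0.24 (limma adjusted p = 0.0479) was lost on leaving out any 1 of the preGTS1 libraries (limma adjusted p = 0.0539 to 0.12), and at the hedgehog effector Gli2, with a difference of 0.18 (limma adjusted p = 0.311). Of 10 TGF-beta, BMP and mesenchymal genes near gained regions 7 rose and 2 fell, and over the whole list 12 of 21 rose and 4 fell: the BMP receptor gene Bmpr1b, with 4 of 14 gained, rose by 0.83, N-cadherin (Cdh2), with 3 of 13, by 0.48, and fibronectin (Fn1) fell by 0.51 (limma adjusted p = 0.0132, and 0.0511 to 0.0674 without preGTS1 DOX replicate 1 or DMSO replicate 1). The Notch target Hey1 had 3 of 5 gained and was at 5.74, 6.13 and 5.77 log2 CPM in preGTS1 with DOX, against 4.23, 4.36 and 4.47 with DMSO, without overlap. It missed the threshold (difference 1.53, SE 1.38, limma adjusted p = 0.354, and 6.49e-07 in the preGTS1 libraries alone), and in GTML3 replicate 1 of DOX, at 7.92, stood apart from 2.04 and 2.03 in the other DOX libraries, against 5.84, 6.26 and 6.40 with DMSO, and without it the fall was 4.13 (limma adjusted p = 8.01e-11).

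In the receptor list, all 3 genes near gained regions rose in preGTS1. Over the whole list 10 of 19 measured genes rose and 4 fell, where 34.5% of all genes rose and 33.7% fell. Nr2f2 (COUP-TFII), with 4 of 12 gained, rose by 1.31 (limma adjusted p = 2.37e-06), the thyroid hormone receptor gene Thrb, with 1 of 3, by 3.87 (limma adjusted p = 3.39e-11), and the glucocorticoid receptor gene Nr3c1, with 1 of 9, by 0.35. In GTML3 Thrb rose by 3.11, Nr3c1 fell by 0.30, and Nr2f2 overlapped between conditions. The quiescence gene list had gained regions at Gas2 and Klf6, and Klf6 rose by 1.36 (limma adjusted p = 3.11e-07), while Gas2 RNA overlapped in preGTS1.

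Growth genes went the other way. Every one of the 25 S-phase and mitosis genes and the 23 ribosome biogenesis and MYC target genes measured fell in preGTS1, where 33.7% of all genes fell; they include 1 S-phase and 4 ribosome biogenesis genes near gained regions. Ldha, lactate dehydrogenase of glycolysis, with 1 of 4 regions gained, was at 7.96, 8.07 and 7.88 log2 CPM in preGTS1 with DOX, against 11.05, 10.96 and 11.18 with DMSO, and fell by 3.10 (SE 0.109, limma adjusted p = 1.25e-12), and in GTML3 it fell by 0.49. Odc1, the first enzyme of polyamine synthesis, with 2 of 7 gained, fell by 1.33 in preGTS1, Utp20, a ribosomal RNA processing factor, by 2.36, and the S-phase list's Mki67, a proliferation marker with 1 of 3 gained, by 3.38.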

How the data were processed

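The series holds 44 mouse samples, of which the 16 ATAC libraries and the 12 RNA libraries of the treated lines were used. Per the submitters' processing notes, STAR 2.4.0, Bowtie2 2.2, Subread 1.5.2, limma, MACS2 and edgeR were used, and mm9 and mm10 are both named as builds; the notes do not tie a build or tool to a table. The authors deposited CPM per region for ATAC (each library sums to a constant over its regions) and log2 CPM per gene symbol for RNA. Both gave whole reads for 100% of values within 0.1 read, so depth could be recovered; 1 line of each ATAC table names no region and was left out. Coordinates were read as mm9, because only 0.832% of 3244 regions at gene starts lay near the GRCm38 promoter of their gene.

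The members and gene lists were chosen with earlier results of these data known. ATAC differences are log2(mean CPM + 1) of DOX minus DMSO, of GTS minus GTML_3 DMSO or of GFP minus NoneGFP, called at 1 or more in size when both libraries of one group lie beyond both of the other. ATAC replicates were counted as 1 sample, so limma and edgeR on ATAC compare libraries, not conditions. Intervals cover counting error only (95%), widened by the mean chi-square per degree of freedom (1.88, and 2.02 for the GFP table); 3 reads were the floor for a count of 0. RNA was fitted with limma 3.58.1 (lmFit, then eBayes using the trend and robust options) in R 4.3.3 on the 12 libraries in 4 groups with 8 residual degrees of freedom; all 15926 genes had CPM of at least 1 in 3 samples, and p-values were adjusted over all of them by Benjamini-Hochberg. Alternatives used edgeR 4.0.16 and DESeq2 1.42.0 on recovered reads, other scalings, pseudocounts and filters, and leaving out each library. Both procedures were tested on simulated data. Tables and figures were made in Python 3.11.15.

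Named regions were the 8 highest and 8 most different in preGTS1, the 3 on each side of both limits, the 4 largest rises and falls in GTML_3, in both GTS sources and in GFP; named genes were the 8 with most gained regions, the 10 largest increases and 6 largest decreases in preGTS1 RNA without overlap, up to 3 per list, and Sox9, Mycn, Myc, Mgmt and Slc1a2. Only some of the named regions are described with values, and 1 is not reported here.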

Additional observations from a re-analysis of the deposited data

Results flagged for a closer look

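For the genes below the RNA response to DOX differed between the lines by the test of the difference itself (limma, adjusted p under 0.05, preGTS1 minus GTML3, log2). The response was higher in preGTS1 for 9430021M05Rik (6.2), Sema6d (5.62), Slc17a6 (4.12), Rax (3.78), Nfib (2.75), Cxcr4 (2.74), Islr2 (2.52), Elavl2 (2.29) and Gjd2 (2.26). It was also higher for Klf6 (1.57), Fn1 (1.52), Mgmt (1.47), Nr2f2 (1.31), Ebf1 (0.92), Bmpr1b (0.92), Pard3 (0.89), Gas2 (0.77), Thrb (0.76), Nr3c1 (0.65), Cdh13 (0.6) and Cdh2 (0.3). For Cxcr4 and Sema6d the GTML3 libraries hold 0 reads with DOX, so the value is that of preGTS1 set against no measurable RNA, and by edgeR the Cxcr4 difference was not called.

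The response was lower in preGTS1 for Lpl (-7.76), Steap3 (-4.91), Pcdh15 (-2.95), Clnk (-2.66), Ldha (-2.61), Pla2g4a (-2.09), Prdm1 (-1.58), Lpin1 (-1.41) and Mycn (-1.27). It was also lower for Fanci (-1.1), Ttk (-0.96), Otx2 (-0.88), Ect2 (-0.71), Meis2 (-0.6), Mki67 (-0.56), Tbl1xr1 (-0.53) and Utp20 (-0.5). On leaving out 1 library, the differences of Clnk (-2.79 to -1.85 in those fits), Thrb (0.58 to 0.71), Mki67 (-0.48) and Cdh2 (0.27) missed the threshold in some fits.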

How the results depend on the processing

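The 6 RNA shares stayed within 1.5 times their value under every alternative run. Of the ATAC shares of gained regions, those that moved by more were as follows. In GTML_3 the share lower (2.42%) was 0.948% with a pseudocount of 2, 1.02% when members needed 10 CPM, and 4.22% to 8.79% on leaving out 1 library. It was 0.283% at a mean of 5 CPM, 0.166% with limma, 0.0711% with limma and a replicate block and 0.0237% with edgeR. For eligible regions these settings gave 10.6%, 3.23%, 1.54% and 6.52%. The share higher (35.6%) was 10.0% with limma, 4.84% with the block and 6.28% with edgeR, which called 3.2%, 1.36% and 1.69% of eligible regions. In GTS_1 the share higher (10.1%) was 5.14% with a pseudocount of 2 and 11.0% to 16.0% on leaving out 1 library. It was 22.4% at 5 CPM, 4.79% with limma, 4.05% with the block and 6.73% with edgeR. For eligible regions these settings gave 21.4%, 12.8%, 11.9% and 17.5%. The share lower (17.3%) was 38.5%, 10.1%, 8.72% and 10.0% at 5 CPM, with limma, with the block and with edgeR. For eligible regions it was 38.9%, 25.7%, 24.0% and 25.7%. In GTS_2 the share higher (6.83%) was 4.43% with a pseudocount of 2. It was 23.1% at 5 CPM, 4.46% with limma, 3.91% with the block and 4.22% with edgeR. For eligible regions these settings gave 11.9%, 6.91%, 6.41% and 7.37%. The share lower (28.3%) was 17.7% with the block and 14.7% with edgeR, against 39.3% and 36.3% of eligible regions. In GFP the share higher (0.818%) was 1.64% and 0.491% with pseudocounts of 0.5 and 2, 2.09% for members at 3-fold, 0.535% beyond 5000 bases and 0.655% to 1.47% on leaving out 1 library. It was 0.491% median-centred, 3.44% with limma, 3.6% with the block and 2.13% with edgeR. For regions overlapping eligible ones these settings gave 0.201%, 2.09%, 2.15% and 1.72%. The share lower (0) was 0.164% with a pseudocount of 0.5 and 0 to 0.164% on leaving out 1 library. With limma, the block and edgeR it was 0.655%, 0.818% and 0.818%, against 1.27%, 1.37% and 1.71% of those overlapping eligible regions. The causes were not tested, except that leaving out a library loosens the rule on overlap.

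Some RNA values of single genes were reversed. Tbl1xr1 in preGTS1 (-0.04) was 0.03 and Gas2 (-0.04) 0.02 with DESeq2, and Hey1 in GTML3 (-2.17) 0.17 with edgeR and 0.19 with DESeq2. On log2(CPM + 1) the difference between lines was -0.78 for Sync, -1.53 for Gm16701, 0.16 for Efnb2, 0.48 for Sox9 and 2.45 for Myc, and Efnb2 was 0.02 with DESeq2. On leaving out 1 library, values ranged from -0.1 to 0.04 for Tbl1xr1 and -0.01 to 0.19 for Glul in preGTS1; from -1.05 to 0.68 for Ebf2, -0.16 to 0.41 for Steap3, -0.78 to 1.57 for Tnc and -0.32 to 0.05 for Gli2 in GTML3; and, for the difference between lines, from -0.14 to 0.06 for Efnb2, -0.49 to 0.15 for Sox9, -0.53 to 0.02 for Cabp5 and -0.01 to 0.19 for Glul.

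Same-numbered libraries did not pair (correlations of deviations -0.333 to 0.086 for RNA and about 0 for ATAC); with the replicate block 44.2% of nearest genes rose and 29.4% fell in preGTS1. Depth limits GTML_3 with DOX most, where 1 read is worth over 1 CPM.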
